A study of Musca domestica with 6 samples.

Results

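Protease inhibitors and serpins of the housefly, Musca domestica, were followed in whole larvae of the 2nd instar after injection of double-stranded RNA. The genes were chosen by their deposited descriptions: a protein-coding gene was taken where its description names a serpin, antitrypsin, antichymotrypsin, a trypsin, protease or proteinase inhibitor, a Kunitz or Kazal protein, or a cystatin. This gave 58 of the 14227 genes in the table, and 47 of the 58 passed a filter on low counts and were tested. The injected RNA targeted either MdCht9, a gene for chitinase, the enzyme that breaks down the chitin of cuticle (dsMdCht9, 3 libraries), or green fluorescent protein, which insects lack (dsGFP, 3 libraries). Double-stranded RNA starts RNA interference, so both groups had received an agent of that kind, and whole bodies were collected 24 h later. The labels name neither strain, sex nor the number of larvae in a library, and do not say that the libraries of a group came from separate pools, so p-values measure the spread between these libraries, which may be technical. The series text speaks of retinal RNA, while the sample labels give whole body, which was followed.

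Libraries held 12876941 to 15439421 counted reads. No annotation used here names MdCht9, so silencing of the targeted transcript was not checked. The samples numbered 3 stood apart from the rest: on the first principal component, which held 49.3% of the variance, they lay at 48.2 (dsMdCht9) and 40.2 (dsGFP), against -33.5 to -3.04 for the other 4 libraries. Marker lists of fat body, midgut, epidermis, muscle, haemocytes, salivary gland, neurons and germ line all held reads in every library. Levels are given as CPM (read counts scaled to a common library total), with a further TMM factor per library (trimmed mean of M-values). CPM is not divided by transcript length, so levels are compared between libraries and not between genes.

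Protease inhibitors bind a protease at its active site and hold it. Serpins do so once, by offering a loop that the protease cuts and by trapping it in the act, and in insect blood they restrain the protease cascades that lead to Toll signalling and to melanin formation. Kunitz, Kazal and TIL (trypsin inhibitor-like) inhibitors are small domains held by disulfide bonds that block trypsin-like and chymotrypsin-like proteases without being used up. Cystatins act on another kind of target, the papain-like cysteine proteases such as cathepsins.

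By deposited Pfam domain, the 58 genes comprised 19 serpins, 20 Kunitz, 5 Kazal, 2 TIL and 9 cystatin genes, and 3 genes with another leading domain. Most of the tested genes had lower estimates after dsMdCht9 injection, and the differences were mostly small. The 2 that stood out were a serpin of the 88Ea type and a Kazal trypsin inhibitor. Of the 47 genes, 34 lay lower and 13 higher in dsMdCht9, with a median log2 fold change of -0.18, beside -0.0033 over all 10644 genes tested, of which 50.5% lay lower. Without both samples numbered 3, 34 of 46 tested lay lower, with a median of -0.18. In edgeR's quasi-likelihood test 0 of the 47 passed an adjusted p of 0.05, and 0% of all genes did. An unadjusted p under 0.05 was reached by 3 members, all lower, which is 6.38% of those tested, against 3.58% of all genes tested (1.61% lower and 1.97% higher). DESeq2 and limma-voom brought 4 members each to that level, again all lower, against 3.76% of all genes (2.0% lower) in DESeq2 and 3.56% (1.56% lower) in limma-voom. The 3 dsMdCht9 libraries lay wholly below the 3 dsGFP libraries in 7 of the 47 and wholly above in 0, where 8.21% of all genes had groups that did not overlap (3.38% below and 4.83% above). These counts hold at the TMM scaling. By library size alone the groups of LOC101894531, LOC101896857 and LOC101894019 overlapped, and the share of all genes was not counted.

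The count at an unadjusted p rested on which libraries, scaling, filter and fit were used. By library size alone it was 2 of 47, or 4.26%, against 3.57% of all genes. With a filter of 5 CPM in 3 samples it was 2 of 38, or 5.26%, against 3.05%. Without dsMdCht9 replicate 2 it was 3 of 48, or 6.25%, against 5.39%. It was 5 of 50 without dsMdCht9 replicate 1, against 2.98% of all genes in that fit, and 5 of 49 without dsMdCht9 replicate 3, against 3.56%. It was 9 of 49 without dsGFP replicate 3 (7 lower and 2 higher), against 6.53% of all genes. It was 7 of 46 without both samples numbered 3, all lower, when 5.54% of all genes reached it (3.37% lower). The samples numbered 3 resembled each other across the groups, while pairing by numbers 1 and 2 was not established. With the replicate number as a block the count was 10 of 47, all lower, or 21.3%, against 8.34% of all genes (4.88% lower). The same block in DESeq2 gave 9, all lower, against 6.02% of all genes (3.99% lower). Again 0 members passed an adjusted p of 0.05 in edgeR with the block. DESeq2 passed 1 member, LOC101896547, beside 0.132% of all genes, and passed the same 1 with the block, beside 0.799%. Within each replicate number on its own, 16 of the 47 genes (34.0%) lay lower in dsMdCht9 all 3 times, against 15.9% of all genes, and 1 lay higher all 3 times, against 15.3% of all genes. These counts hold at the TMM scaling and were not made by library size alone. By library size alone LOC101892339 and LOC101894531, among the 16, lay higher in dsMdCht9 within number 1.

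**Figure D1:**
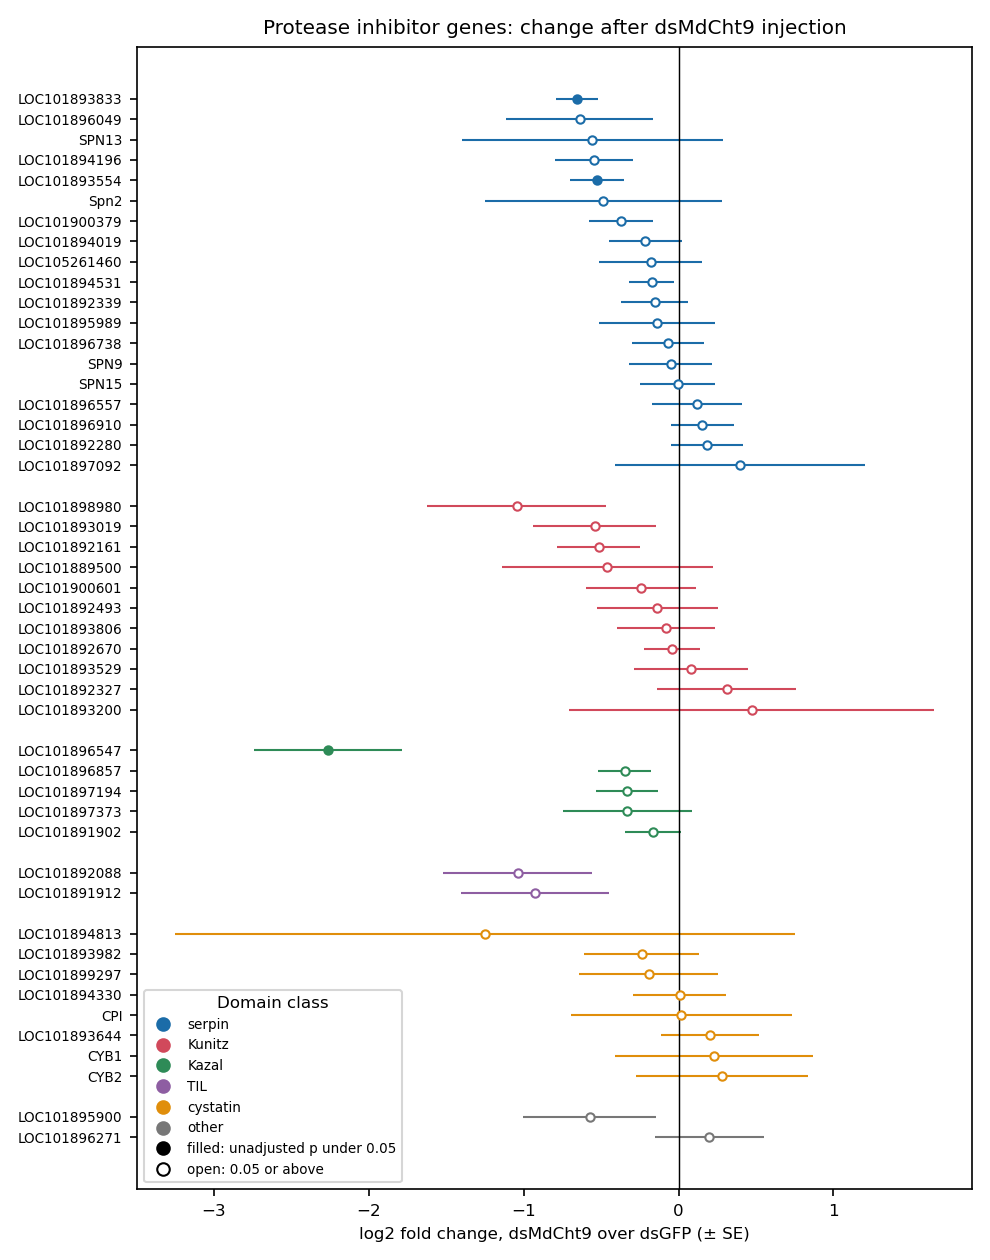
Log2 fold change of each of the 47 tested protease inhibitor genes, dsMdCht9 over dsGFP, with its standard error on the horizontal axis and genes grouped by domain class down the page. Filled points mark the 3 genes at an unadjusted p under 0.05, and 34 of the 47 points lie left of 0.

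Summed over all 58 genes, the level was 2505, 2536 and 2691 CPM in dsMdCht9 replicates 1, 2 and 3, against 2773, 2897 and 2948 CPM in dsGFP replicates 1, 2 and 3. The groups did not overlap, and their means were 2577 ± 99.6 CPM in dsMdCht9 and 2873 ± 90.2 CPM in dsGFP (SD, n = 3 each). That separation depended on the scaling: by library size alone, with no further factor, the sums were 2836, 2400.3 and 2834 CPM in dsMdCht9 and 2491, 2775 and 3024 CPM in dsGFP, and the groups overlapped. Scaling by library size alone also moved the median of all genes to 0.12 and that of the members to -0.068, which is 0.18 below all genes, as in the scaled fit. With that scaling 29 of the 47 lay lower and 18 higher. In whole larvae, fewer cells of a type and less RNA per cell cannot be told apart.

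Genes that mark tissues were set beside these sums. Of the fat body genes, where much of the blood's inhibitor supply is made, 13 of 15 tested lay lower in dsMdCht9, with summed levels of 87132 to 151098 CPM in dsMdCht9 and 119592 to 154484 CPM in dsGFP. Haemocyte genes lay lower in 7 of 14, with sums of 1865 to 3521 CPM in dsMdCht9 and 2749 to 3023 CPM in dsGFP. Midgut genes lay lower in 91 of 135, with sums of 15674 to 24622 CPM in dsMdCht9 and 18606 to 21769 CPM in dsGFP. All of these ranges overlapped, and dsMdCht9 replicate 1 was lowest for fat body and haemocytes. Epidermis genes lay lower in 45 of 55, with sums of 18708 to 36987 CPM in dsMdCht9 and 24314 to 47550.5 CPM in dsGFP. Muscle genes lay lower in 10 of 11, with sums of 16054 to 28333 CPM in dsMdCht9 and 18836 to 28204 CPM in dsGFP, and salivary gland genes in 6 of 6, with sums of 209.97 to 316 CPM in dsMdCht9 and 263 to 488 CPM in dsGFP. Neuron genes (6 of 14 lower) and germ line genes (2 of 4 lower) were nearly even. The part of these tissues in the lower inhibitor levels was not tested. The midgut list includes the trypsins, and the haemocyte list the phenoloxidases, that are described again below, so those lists are not separate observations.

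**Figure D2:**
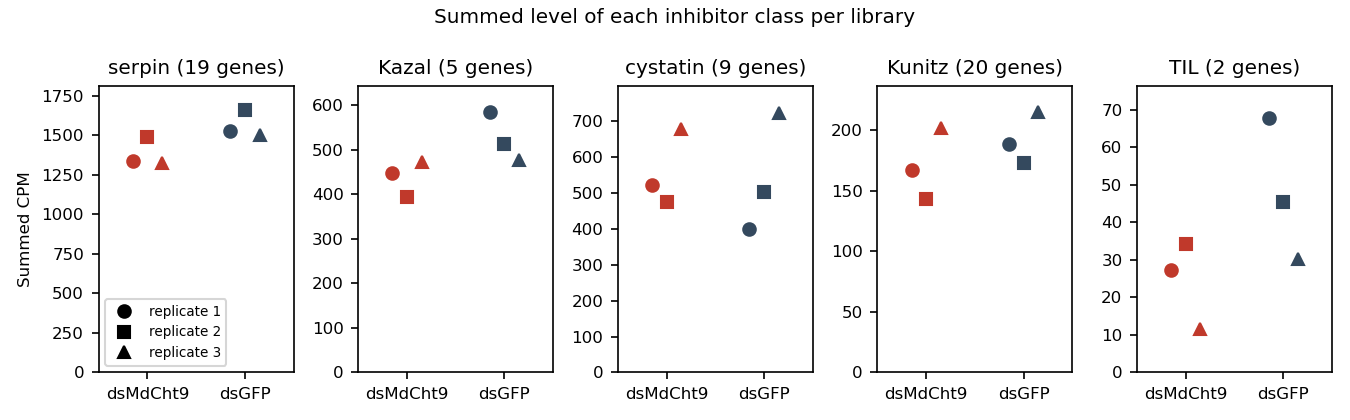
Summed CPM of the serpin, Kazal, cystatin, Kunitz and TIL genes in each library, dsMdCht9 left of dsGFP in every panel, with 1 point per library and its shape giving the replicate number. The serpin sums lie between 1324 and 1487 CPM in dsMdCht9 and between 1499 and 1659 CPM in dsGFP, while the cystatin sums overlap.

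Serpins made up the largest share of inhibitor reads, and all 19 were tested. In dsMdCht9, 15 lay lower and 4 higher, with a median log2 fold change of -0.17 and a range of -0.66 to 0.40. By library size alone 12 lay lower and 7 higher, with a median of -0.048. The summed serpin level was 1336, 1487 and 1324 CPM in the dsMdCht9 libraries, in the order of their numbers, against 1525, 1659 and 1499 CPM in the dsGFP libraries, with no overlap at this scaling.

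The serpins with the largest differences for their error were a pair described as serpin B3, whose closest Uniprot entry in the table is serine protease inhibitor 88Ea, a Drosophila serpin known to restrain the Toll pathway. LOC101893833 (scaffold NW_004770250.1, positions 49081 to 55426, minus strand) was at 47.02, 40.7 and 48.7 CPM in dsMdCht9 replicates 1, 2 and 3, against 73.3, 69.1 and 72.7 CPM in dsGFP replicates 1, 2 and 3. Every dsMdCht9 library lay below every dsGFP library, and the gap between the groups was wider than the range within either. The log2 fold change was -0.66 ± 0.14 (SE), with an edgeR adjusted p of 0.999 and an unadjusted p under 0.05. Within replicate numbers 1, 2 and 3 the log2 ratio was -0.64, -0.77 and -0.58. Leaving out 1 library at a time gave -0.70 to -0.58, and without both samples numbered 3 it was -0.69. With the block, the adjusted p was 0.3304 in edgeR and 0.05003 in DESeq2, which without the block gave 0.0705.

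The second gene of the pair, LOC101893554 (scaffold NW_004771418.1, positions 7 to 1572, plus strand), was at 28.7, 22.1 and 29.6 CPM in the dsMdCht9 libraries and 36.3, 35.2 and 44.4 CPM in the dsGFP libraries. These groups did not overlap either, and the log2 fold change was -0.53 ± 0.18 (edgeR adjusted p = 0.999). Leaving out 1 library at a time gave -0.60 to -0.41. The unadjusted edgeR p was 0.0201, but 0.126 by library size alone. It also rose above 0.05 without dsMdCht9 replicate 2 (0.0600), dsGFP replicate 3 (0.0642) or both samples numbered 3 (0.0525). With the block it was 0.00611, and it stayed under 0.05 without any other single library. Both genes carry the same description, and LOC101893554 starts at base 7 of a short scaffold, so reads could be shared between them or 1 gene could be split over 2 scaffolds. In a RefSeq gene table of another assembly, LOC101893554 covers a longer span than in the deposited table, and LOC101893833 was not matched. The counts given above hold both genes, although they may not be separate results.

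Serpins related by description to other Drosophila regulators of melanin formation showed no such separation. SPN15, closest to serine protease inhibitor 27A, which in Drosophila blocks the activation of phenoloxidase, averaged 100.02 ± 21.3 CPM in dsMdCht9 and 100.4 ± 26.3 CPM in dsGFP (SD, n = 3 each), a log2 fold change of -0.0062 ± 0.24. A further pair is closest to serine protease inhibitor 77Ba, known in Drosophila for holding back melanin formation in the tracheae. Of these, LOC101900379 differed by -0.37 ± 0.21 and LOC101895989 by -0.14 ± 0.38, and in both the groups overlapped.

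Many of the serpins stood in a row on 1 scaffold. This array held 9 of the 19 within 99.5 kb (scaffold NW_004764543.1, positions 523710 to 623255), all on the minus strand, and 7 of the 9 lay lower in dsMdCht9, with a median of -0.18. Estimates differed in sign and size along the row. At one end, LOC101894531 (antichymotrypsin-2-like) was at 203, 187 and 211 CPM in dsMdCht9 and 230.2, 227 and 221 CPM in dsGFP, with no overlap at the TMM scaling but a small log2 fold change of -0.17 ± 0.15. Next to it, LOC101896910 (neuroserpin-like) lay the other way at 0.15 ± 0.20, with 158, 148 and 103 CPM in dsMdCht9 and 109, 128 and 130.4 CPM in dsGFP.

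LOC105261460, the gene of this row with the most reads, was at 185, 467 and 315 CPM in dsMdCht9 and 368, 422 and 307 CPM in dsGFP. Its lowest and its highest library both belonged to dsMdCht9, so its log2 fold change of -0.18 ± 0.33 turned to 0.097 without dsMdCht9 replicate 1 and was -0.55 without dsMdCht9 replicate 2. LOC101894196 (antitrypsin) was at 40.7, 42.0 and 30.5 CPM in dsMdCht9 and 70.4, 57.3 and 37.6 CPM in dsGFP, lower in dsMdCht9 within every number, with a log2 fold change of -0.55 ± 0.25. It was among the 10 members at an unadjusted p under 0.05 in the blocked edgeR fit (adjusted p = 0.472).

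Spn2 (antitrypsin-like) was split by replicate number far more than by group. It was at 35.9, 39.7 and 6.78 CPM in dsMdCht9 replicates 1, 2 and 3 and 52.7, 50.9 and 11.8 CPM in dsGFP replicates 1, 2 and 3, low in both samples numbered 3. Within the numbers it lay lower in dsMdCht9 each time, by -0.55, -0.36 and -0.79 on the log2 scale. It reached an unadjusted p under 0.05 with the block (edgeR adjusted p = 0.442) and not without it, when its log2 fold change was -0.49 ± 0.76. LOC101896049 (antichymotrypsin-2-like) was high in the same 2 samples, at 15.96, 24.5 and 43.8 CPM in dsMdCht9 and 34.5, 27.5 and 68.9 CPM in dsGFP, and it too was lower in dsMdCht9 within every number. It shares 3459 bases on the same strand with LOC101894019, so reads of these 2 genes cannot be kept apart with certainty. LOC101894019 held few reads, at 2.25, 2.73 and 2.36 CPM in dsMdCht9 and 2.74, 2.795 and 2.97 CPM in dsGFP, a log2 fold change of -0.21 ± 0.24 with groups that just missed each other at the TMM scaling. The remaining members of the row, LOC101896557 and LOC101896738, differed by 0.12 ± 0.29 and -0.067 ± 0.23. The sign of LOC101896738 turned by library size alone.

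The other serpins lay near 0 or varied widely. LOC101892339 (serpin B4-like) differed by -0.15 ± 0.22, SPN9 by -0.050 ± 0.27 and LOC101892280 by 0.19 ± 0.23, and SPN9 and SPN15 turned positive by library size alone. SPN13 and LOC101897092, neighbours of SPN9 on its scaffold, were high in the samples numbered 3. SPN13 was at 6.07, 1.64 and 8.48 CPM in dsMdCht9 and 5.77, 1.91 and 16.1 CPM in dsGFP, and LOC101897092 at 7.14, 1.71 and 9.95 CPM in dsMdCht9 and 2.67, 1.84 and 9.74 CPM in dsGFP. Their log2 fold changes of -0.56 ± 0.84 and 0.40 ± 0.80 were smaller than their standard errors.

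**Figure D3:**
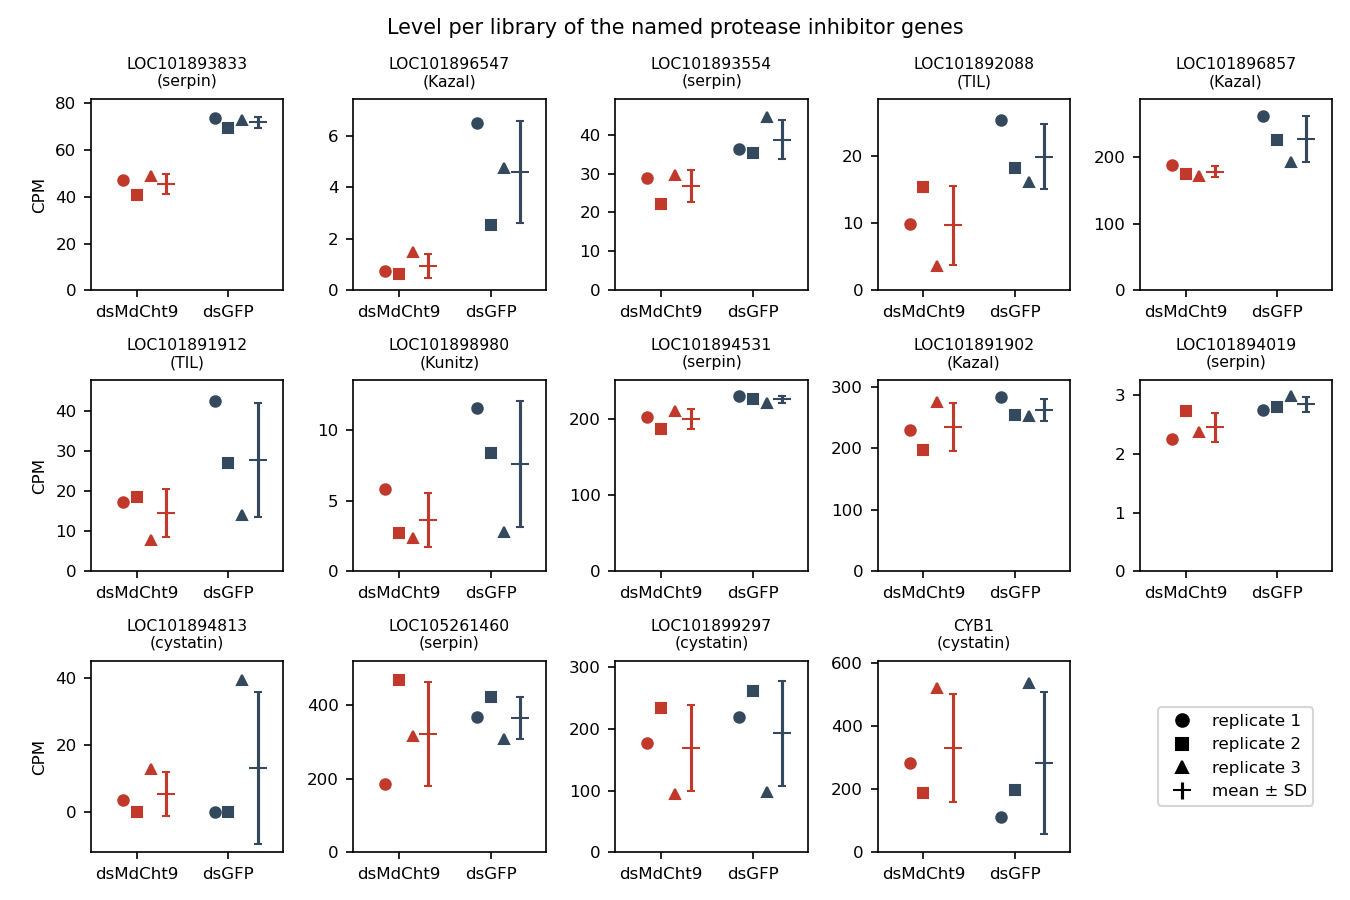
CPM of 14 named inhibitor genes in each library, dsMdCht9 left of dsGFP, with point shape for the replicate number and a bar for the mean ± SD of 3 libraries. LOC101893833 and LOC101896547 separate by group, while LOC101899297, CYB1 and LOC101894813 separate by the samples numbered 3.

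All 5 Kazal genes had lower estimates in dsMdCht9, also by library size alone, with a median log2 fold change of -0.33. The largest log2 fold change among the tested members was that of LOC101896547, described as a pancreatic secretory trypsin inhibitor (scaffold NW_004768450.1, positions 1816 to 2240, minus strand), a protein that in mammals guards the pancreas against trypsin activated too early. Its reads were few: 12, 8 and 20 in the dsMdCht9 libraries in the order of their numbers, against 90, 37 and 75 in the dsGFP libraries. These are 0.751, 0.623 and 1.47 CPM in dsMdCht9 and 6.49, 2.52 and 4.74 CPM in dsGFP, with no overlap. The log2 fold change was -2.26 ± 0.48 (edgeR adjusted p = 0.999), and -2.70 to -1.93 with 1 library left out. DESeq2 gave an adjusted p of 0.0127 without the block and 0.00237 with it, while edgeR with the block gave 0.317.

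A second gene of that description, LOC101891902, did not separate, at 229.7, 198 and 275 CPM in dsMdCht9 and 284, 254 and 252 CPM in dsGFP (log2 fold change -0.17 ± 0.18). That value ranged from -0.29 to -0.059 with 1 library left out and was -0.036 by library size alone. LOC101896857 (Kazal-type 2-like; scaffold NW_004758703.1, positions 762 to 1362, minus strand) was at 188, 174 and 171 CPM in dsMdCht9 and 261, 225 and 193 CPM in dsGFP. At the TMM scaling its groups did not overlap, the dsMdCht9 libraries were tight and the dsGFP libraries spread. By library size alone its groups overlapped. The log2 fold change was -0.35 ± 0.17 (edgeR adjusted p = 0.999). The neighbours LOC101897194 and LOC101897373, both described as double-headed protease inhibitors, differed by -0.33 ± 0.20 and -0.33 ± 0.42, with overlap in both.

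The 2 TIL genes, described as chymotrypsin inhibitors and close to each other on scaffold NW_004764529.1 (positions 99066 to 107500), were both lower in dsMdCht9. LOC101892088 was at 9.95, 15.4 and 3.69 CPM in dsMdCht9 and 25.3, 18.3 and 16.1 CPM in dsGFP, and the log2 fold change was -1.04 ± 0.48, at an adjusted p of 0.999 in edgeR. Its groups did not overlap, although dsMdCht9 replicate 2 came close to the lowest dsGFP library. LOC101891912 was at 17.4, 18.7 and 7.82 CPM in dsMdCht9 and 42.6, 27.1 and 14.04 CPM in dsGFP, and its log2 fold change came to -0.93 ± 0.48 with the same adjusted p. Here the groups overlapped through the low dsGFP replicate 3. With 1 library left out, LOC101892088 ranged from -1.54 to -0.64, weakest without dsMdCht9 replicate 3, and LOC101891912 from -1.24 to -0.49, weakest without dsGFP replicate 1. Both were among the 10 members at an unadjusted p under 0.05 in edgeR with the block.

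Kunitz genes were the most numerous, and many did not pass the filter on low counts. In all, 11 of the 20 were tested, and 8 of these lay lower and 3 higher in dsMdCht9, with a median log2 fold change of -0.14, or 6 lower and 5 higher by library size alone. The array on scaffold NW_004764949.1 held 12 of the 20 within 60.6 kb (positions 526 to 61091), and 6 of those 12 are described as inhibitors of the male accessory gland, the organ that makes seminal fluid proteins in adult males. Of these 6, 5 were tested in the larvae.

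The largest difference in the class was that of LOC101898980, outside the array, at 5.82, 2.73 and 2.36 CPM in dsMdCht9 and 11.5, 8.39 and 2.78 CPM in dsGFP (log2 fold change -1.04 ± 0.58, edgeR adjusted p = 0.999). The high values lay in dsGFP replicates 1 and 2, while dsGFP replicate 3 was near the dsMdCht9 libraries. With 1 library left out its log2 fold change ranged from -1.57 to -0.61, largest without dsMdCht9 replicate 1 and smallest without dsGFP replicate 1. In the array, LOC101892670, the gene with the most reads there, was at 57.5, 46.8 and 66.8 CPM in dsMdCht9 and 58.3, 51.5 and 66.5 CPM in dsGFP, and the groups lay on top of each other.

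In the other tested genes of the Kunitz array the groups overlapped. LOC101892161 differed by -0.51 ± 0.27 and was lower in dsMdCht9 within every number, with log2 ratios of -1.30, -0.044 and -0.22. LOC101893019 was at 21.97, 22.4 and 8.11 CPM in dsMdCht9 and 18.6, 29.2 and 28.7 CPM in dsGFP, a log2 fold change of -0.54 ± 0.40, with dsMdCht9 replicate 3 as the low library. LOC101892327 was at 13.7, 15.7 and 23.96 CPM in dsMdCht9 and 22.4, 14.04 and 6.58 CPM in dsGFP, a log2 fold change of 0.31 ± 0.45. Here the samples numbered 3 were the highest and the lowest of all 6. The remaining tested Kunitz genes, LOC101889500, LOC101900601, LOC101892493, LOC101893200, LOC101893529 and LOC101893806, lay between -0.46 and 0.47, each within 1 standard error of 0.

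**Figure D4:**
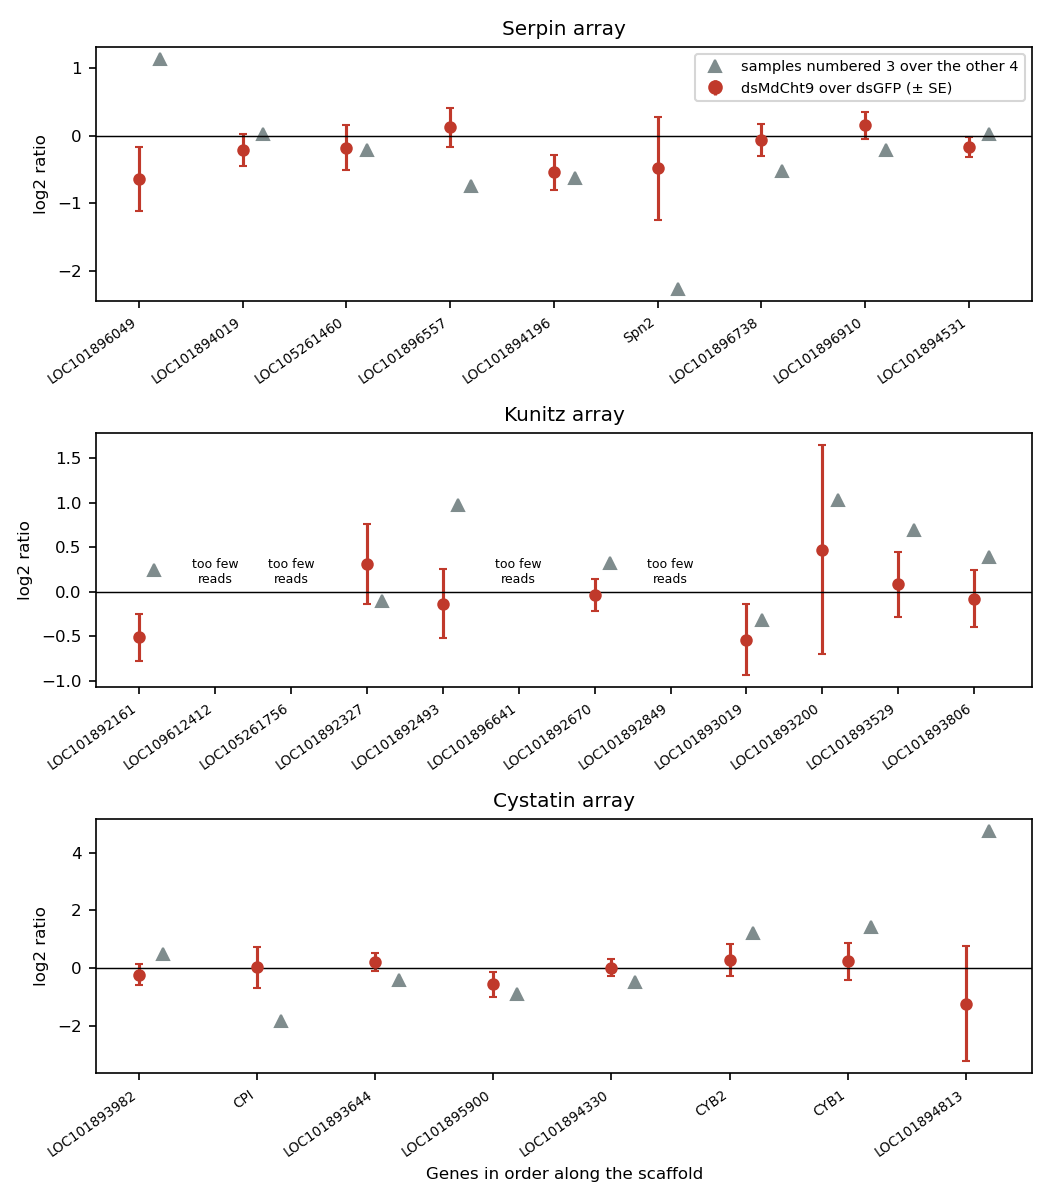
Log2 ratios of the genes in 3 arrays, in their order along the scaffold: dsMdCht9 over dsGFP with its standard error (circles), and the samples numbered 3 over the other 4 samples (triangles, no error drawn). In the cystatin array the triangles run from -1.83 for CPI to 4.76 for LOC101894813, while all circles but that of LOC101894813 lie within 1 of 0.

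Cystatin estimates were spread to both sides of 0. Of the 8 tested, 3 lay lower and 5 higher in dsMdCht9. Their median log2 fold change was 0.013 (0.15 by library size alone, beside 0.12 over all genes). The summed cystatin level was 521, 474 and 678 CPM in the dsMdCht9 libraries and 401, 502 and 723 CPM in the dsGFP libraries, overlapping and highest in both samples numbered 3. Most cystatin genes are described as sarcocystatin-A-like, after a cystatin of flesh fly larvae. The array held 7 of the cystatin genes and LOC101895900, a cystatin-like protein with another domain, 8 genes within 47.6 kb on scaffold NW_004764971.1 (positions 109645 to 157286).

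CYB1, the cystatin with the most reads, was at 284, 187 and 519 CPM in dsMdCht9 and 111, 198 and 536 CPM in dsGFP. Its 2 highest libraries were those numbered 3, and the log2 fold change of 0.23 ± 0.64 was -0.25 without the dsMdCht9 replicate numbered 3, -0.15 leaving out dsGFP replicate 1 and 1.09 leaving out dsGFP replicate 3. LOC101899297, outside the array, had the reverse order, at 178, 234 and 94.96 CPM in dsMdCht9 and 219.96, 262 and 97.8 CPM in dsGFP (log2 fold change -0.19 ± 0.45), low in both samples numbered 3, and its sign turned without dsMdCht9 replicate 3 (0.10) or dsGFP replicate 2 (0.089). At the end of the array, LOC101894813 had reads of 58, 2 and 174 in the dsMdCht9 libraries, in the order of their numbers, and of 0, 1 and 622 in the dsGFP libraries. Its group difference was -1.25 ± 2.00 and was set by dsGFP replicate 3, without which the fitted value was 6.98, resting on 1 dsGFP read. The gene was all but silent in some libraries and well read in others of both groups. Second in the row by position, CPI was at 9.64, 14.3 and 3.98 CPM in dsMdCht9 and 17.7, 7.09 and 2.85 CPM in dsGFP, lowest in both samples numbered 3. LOC101893982, LOC101893644, LOC101894330 and CYB2 lay between -0.24 and 0.28, each within 1 standard error of 0. LOC101895900 differed by -0.57 ± 0.43.

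LOC101896271, described as the reversion-inducing cysteine-rich protein with Kazal motifs, which in mammals is a membrane-bound inhibitor of matrix metalloproteinases, differed by 0.20 ± 0.35. Below the low-count filter lay 11 genes, 9 of them Kunitz genes, with 1 to 47 reads over all 6 libraries. LOC101892849, of the Kunitz array, held 8, 10 and 11 reads in dsMdCht9 and 1, 2 and 7 reads in dsGFP, and LOC105261584 held 0, 2 and 6 reads in dsMdCht9 and 0 in each dsGFP library. LOC101888825 held 24 reads in dsMdCht9 and 23 in dsGFP, and LOC101889091 held 21 in dsMdCht9 and 24 in dsGFP. The other 7, LOC105262216, LOC105262521, LOC109614359, LOC101896044, LOC109612412, LOC105261756 and LOC101896641, held at most 16 reads in all.

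Many inhibitors differed more by replicate number than by the injected RNA, as did most genes. In 13 of the 47, or 27.7%, the samples numbered 3 differed from the other 4 by more than 1 on the log2 scale, against 8.96% of all genes tested. Both samples numbered 3 lay below all 4 others in 9 of the 47 members and above them in 12 of the 47, against 16.6% of all genes below and 18.0% above. The size of this ratio exceeded that of the log2 fold change between the groups in 33 of the 47, or 70.2%, near the 67.4% of all genes. The farthest members were LOC101894813 at 4.76 and SPN13 at 1.68 on the higher side, and Spn2 at -2.27 and CPI at -1.83 on the lower side. LOC101893833 and LOC101896547 stood at 0.076 and 0.26. The labels do not say what the number stands for.

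**Figure D5:**
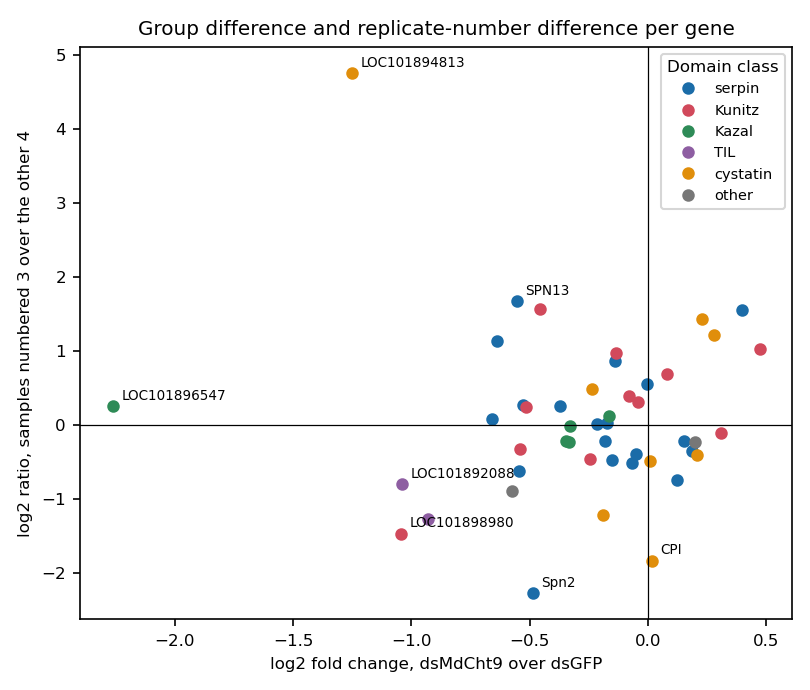
Each point is 1 tested inhibitor gene, with its log2 fold change between dsMdCht9 and dsGFP on the horizontal axis and its log2 ratio of the samples numbered 3 to the other 4 on the vertical axis. Points spread from -2.27 to 4.76 on the vertical axis, and LOC101896547 at -2.26 stands alone on the left near a vertical value of 0.

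Proteases of the kinds that such inhibitors can act on were compared with them. Which protease each of these genes acts on was not tested. Of 81 trypsins and chymotrypsins, which digest food protein in the gut, 63 were tested, and 45 lay lower and 18 higher in dsMdCht9, with a median log2 fold change of -0.30. Of the 63, 8 reached an unadjusted p under 0.05 in edgeR, all lower, against 3.58% of all genes (1.61% lower). In edgeR 0 passed an adjusted p of 0.05. DESeq2 passed 1, beside 0.132% of all genes, and 4 with the block, beside 0.799%. LOC101895007 (trypsin eta-like) averaged 2.00 ± 0.509 CPM in dsMdCht9 and 8.36 ± 2.96 CPM in dsGFP (SD, n = 3 each), a log2 fold change of -2.06 ± 0.34. The trypsin gene with the most reads, LOC109613440, averaged 984 ± 539.5 CPM in dsMdCht9 and 903 ± 236 CPM in dsGFP and differed by 0.12 ± 0.40.

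Serine proteases matched by description to cascade and related enzymes, such as easter, snake, persephone, stubble and proclotting enzymes, were even between the groups. The list was not restricted to enzymes that act in blood. Of 25 tested, 13 lay lower and 12 higher, with a median of -0.050 and 0 at an unadjusted p under 0.05. LOC101890358, a proclotting enzyme, averaged 586 ± 41.5 CPM in dsMdCht9 and 668 ± 52.1 CPM in dsGFP, a log2 fold change of -0.19 ± 0.16. Cysteine proteases, matched by descriptions of cathepsins, caspases and cysteine proteases, were split 7 lower and 7 higher with a median of 0.0015 and 0 at that p. The list was not restricted to the papain-like targets of cystatins. Its cathepsin L gene LOC101891431 differed by -0.086 ± 0.34. The Toll pathway, which serpins restrain, was split 8 lower and 8 higher with a median of -0.0052 and 0 at that p. Its ligand spaetzle (LOC101898905) differed by 0.30 ± 0.16 and its inhibitor cactus (LOC101889324) by -0.054 ± 0.15. In the cascade, cysteine protease, Toll and melanin lists 0 genes passed an adjusted p of 0.05 in edgeR or DESeq2. Among melanin enzymes 10 lay lower and 5 higher, with a median of -0.20, or 0.032 without dsMdCht9 replicate 1. LOC101900449 (phenoloxidase 2) was the 1 gene of the 15 tested in that list at an unadjusted p under 0.05, against 3.58% of all genes. It averaged 4.39 ± 3.14 CPM in dsMdCht9 and 12.3 ± 4.95 CPM in dsGFP. Its log2 fold change was -1.47 ± 0.53, with no overlap at the TMM scaling but with overlap by library size alone. The medians of the cascade, cysteine protease and Toll lists changed sign between settings. By library size alone they were 0.061, 0.12 and 0.10, beside 0.12 over all genes tested.

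The authors' deposited table marks 3 of the 58 genes as significant, all lower in dsMdCht9, where it marks 2.66% of all its genes (1.52% lower). A gene bears the mark where its p lies under 0.05 and its levels differ more than 1.5-fold. By adjusted p under 0.05 the authors' deposited table holds 1 of the members, against 0.114% of its genes. In the authors' deposited table the log2 fold changes of the 3 were -2.28 for LOC101896547, -0.67 for LOC101893833 and -1.04 for LOC101892088. The adjusted p in the authors' deposited table was 0.0184, 0.0917 and 0.99972 in the same order. These values come from the same 6 libraries and add no separate support.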

How the data were processed

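RNA was sequenced from 3 dsMdCht9 and 3 dsGFP samples of whole larvae, with 3 µg of RNA per library per the labels' protocols. The deposited table holds raw read counts per gene, per the file headers. The submitters' processing notes list, without roles, the tools HTSeq 0.6.0, StringTie 1.3.2d and HISAT2 2.1.0. How strand and reads with several matches were treated, and on which genome build, is not given in the sources used here, so members of gene arrays are uncertain gene by gene, and positions are those of the deposited table. The authors' deposited table also gives a mean normalized signal, a fold change as a ratio and as a log2 value, and p-values, raw and adjusted. Of the 58 member symbols, 52 matched a RefSeq gene table, used only to check names and spans. No sequence is shown.

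Counts were analysed in R 4.3.3 with edgeR 4.0.16: filterByExpr left 10644 genes, scaled by TMM, and the two-sided quasi-likelihood F-test had group as its only term, with Benjamini-Hochberg adjustment over all genes at a threshold of 0.05. The biological coefficient of variation was 0.306. DESeq2 1.42.0 and limma-voom (limma 3.58.1) were alternatives, as were other scalings, filters, left-out libraries and the replicate number as a block. Only the edgeR fit without the block was tested on simulated data, which held no difference by replicate number.

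The deviations of same-numbered samples from their group means correlated at 0.24, 0.39 and 0.65 for numbers 1, 2 and 3 over the tested genes. All exceeded 0.1, which was taken as pairing, although the labels state no shared litter, batch or day. However, dsMdCht9 replicate 2 correlated at 0.32 with dsGFP replicate 1, above the value for number 1. The group means include the samples numbered 3, which stood apart, so the values for numbers 1 and 2 do not establish pairing. Samples of a group differed beyond sampling noise, with chi-square over degrees of freedom between 33.6 and 143.5.

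The members, the lists and the alternatives were chosen with earlier results of these data known. Values in every library were given for members at an unadjusted p under 0.05, the 6 members with the most reads, the 3 with the largest remaining change, those whose groups did not overlap, and some further members picked after their values were seen. Genes of the comparison lists were matched by description, and those whose description names another protein were left out. Of these lists, the 3 genes of smallest p or the gene with the most reads could be named.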

Additional observations from a re-analysis of the deposited data

How the results depend on the processing

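No protease inhibitor passed an adjusted p of 0.05 in edgeR or limma-voom under any setting run, and DESeq2 passed 1, with and without the replicate block. Over all genes DESeq2 passed 14 without the block and 85 with it, and among trypsins 1 without and 4 with it. At an adjusted p of 0.05 the replicate block changed no other call. The members at an unadjusted p under 0.05 numbered 10 in edgeR with the replicate block (8.34% of all genes), 9 in DESeq2 with it (6.02%), 7 without both samples numbered 3 (5.54%), and 3 to 9 with 1 library left out (2.11% to 6.53%). By library size alone 2 members reached that level (3.57% of all genes), as did 2 with a filter of 5 CPM in 3 samples (3.05%). At an adjusted p the members, all genes and each comparison list stayed at 0 (edgeR) with 1 library left out. The members' median log2 fold change was -0.23 to -0.13 with 1 library left out. It was -0.20 with further genes that carry an inhibitor domain added, a choice made after seeing the data.

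The cascade median was 0.061 by library size alone, 0.0069 and 0.00068 with the replicate block (edgeR, DESeq2), 0.060 without both samples numbered 3, and -0.22 to 0.16 with 1 library left out. The cysteine protease median was -0.0061 with RLE factors, 0.12 by library size alone, -0.011 without a filter, -0.0061 in DESeq2, -0.060 without both samples numbered 3, and -0.039 to 0.12 with 1 library left out. The Toll median was 0.10 by library size alone, 0.017 in limma-voom, 0.019 and 0.013 with the replicate block (edgeR, DESeq2), 0.068 without both samples numbered 3, and -0.14 to 0.12 with 1 library left out. By library size alone the median of all genes was itself 0.12. The trypsin and melanin medians were -0.40 to -0.18 and -0.34 to 0.032 with 1 library left out. LOC101894813 turned to 1.93 in limma-voom, 0.13 in edgeR with the replicate block and 1.70 in DESeq2 with it, and ranged from -2.75 to 6.98 with 1 library left out. LOC105261460, LOC101899297 and CYB1 ranged from -0.55 to 0.097, -0.50 to 0.10 and -0.25 to 1.09. LOC101894813 and LOC101893200 had no value without both samples numbered 3, where they were under the filter on low counts. The cause of these turns was not tested. Without the filter on low counts all 58 inhibitors were tested, and 4 reached an unadjusted p under 0.05, against 3.48% of all genes.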

Other observations

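The description rule leaves out genes whose deposited Pfam domain is an inhibitor domain but whose description names something else. There were 36 such protein-coding genes: 19 with a Kazal, 8 with a serpin, 5 with a Kunitz and 4 with a TIL domain. Of the 27 tested, 19 lay lower and 8 higher in dsMdCht9, with a median log2 fold change of -0.30, and 5 were at an unadjusted p under 0.05, all lower, against 3.58% of all genes in either direction. In edgeR 0 passed an adjusted p of 0.05. The list was chosen after values had been seen, so its counts are a description. LOC101887357, a serpin described as a leukocyte elastase inhibitor, averaged 59.7 ± 18.6 CPM in dsMdCht9 and 129 ± 49.1 CPM in dsGFP (SD, n = 3 each), a log2 fold change of -1.11 ± 0.35 with overlap between the groups. LOC101890073, a Kazal gene named after a turripeptide, averaged 147 ± 37.1 CPM in dsMdCht9 and 247 ± 45.5 CPM in dsGFP, a log2 fold change of -0.74 ± 0.25, and LOC101897660 (vasotab-like), which stands on the scaffold of the double-headed Kazal genes, differed by -0.74 ± 0.27. In both of these the groups did not overlap at the TMM scaling, while those of LOC101897660 overlapped by library size alone. The serpin gene with the most reads of this list, LOC101895742, averaged 629 ± 102 CPM in dsMdCht9 and 700.5 ± 47.9 CPM in dsGFP and differed by -0.16 ± 0.18.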
